A study of Mus musculus with 9 samples.

Results

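KLF, NR4A and ZFP36 genes are a set of 10 stress-induced regulators of transcription and mRNA decay: Klf2, Klf4, Klf6, Klf10, Nr4a1, Nr4a2, Nr4a3, Zfp36, Zfp36l1 and Zfp36l2. They were taken by gene symbol from a count table of 23413 genes in mouse Kupffer cells (KCs), the resident macrophages of the liver. All 10 were in the table, and all 10 were among the 11393 genes that passed the filter on low counts. The series holds 9 polyA RNA libraries, each labelled as KCs from a separate mouse. By these labels, two-sided p-values describe the spread between mice. The paper's legend for this sort gives more mice per group than there are libraries, a difference that was not settled here.

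The ND group has 2 libraries from mice on a normal diet. The Veh group has 3 libraries from mice fed a high-fat diet (HFD) for 8 weeks and injected with vehicle. The DPI group has 4 libraries from mice on the same diet that received diphenyleneiodonium (DPI) at 2 mg/kg every 5 days from week 3. DPI is a flavoprotein inhibitor that the study examined as an agonist of the receptor GPR3. The mice were male C57BL/6, aged 5 weeks when the diets began. The ND mice are not labelled as having received vehicle, so HFD and vehicle injection cannot be told apart in Veh against ND. A treatment note attached to every sample, ND included, instead describes purified KCs given DMSO or 500 nM DPI for 24 h. The series design was followed here, and which of the accounts holds for these libraries could not be settled from the values.

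Sorting was on F4/80 and CD11b, a gate that monocyte-derived macrophages also enter. The F4/80 gene, Emr1, had between 219 and 2315 counts in every library. Clec4f, which marks resident KCs, had 0 counts in ND1, Veh2 and Veh3, and Marco had no more than 1 count in any library. Timd4 had 28 counts in ND2, 7 in Veh1 and at most 1 elsewhere. The labelled cell type thus showed its sorting marker throughout but not its defining resident markers in every library. In bulk RNA, fewer cells of a type and less RNA per cell cannot be told apart.

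Totals ran from 3534325 to 15585775 counts per library, so that 3 counts, taken as the floor of detection, correspond to 0.184 to 1.02 CPM, the count scaled to a common library total with edgeR's TMM factors. The ribosomal RNA precursor Rn45s took 27% to 44.5% of each library's counts. The ND libraries stood apart from each other, with a rank correlation of 0.740 over all tested genes, against 0.867 to 0.880 within Veh and 0.838 to 0.887 within DPI. Calls of the members, and counts over the lists around them, that changed when ND1 or ND2 was left out are given with those values.

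The 3 families act at successive steps of a cell's response to a stimulus. KLF proteins are zinc finger factors that bind GC-rich DNA. Klf2 and Klf4 are known in macrophages for restraining inflammatory genes, and Klf2 is induced through the kinase ERK5 and MEF2 factors. NR4A proteins are orphan nuclear receptors, controlled mainly by how much of them is made, and cyclic AMP acting through CREB is a well-known inducer of their genes. ZFP36 proteins bind AU-rich elements in the 3′ untranslated regions (UTRs) of cytokine mRNAs and recruit the CCR4-NOT deadenylase, which shortens the poly(A) tail and starts decay. Genes of all 3 families are also known to be induced while a tissue is dissociated into single cells.

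Levels of different genes were compared as CPM per kilobase of the longest principal coding transcript. In Veh the order ran from Zfp36 at 1122 ± 182 CPM per kilobase (SD, n = 3) and Nr4a1 at 693 ± 66.4 through Klf6 at 182 ± 21.8 and Zfp36l1 at 130 ± 30.9. It went on with Zfp36l2 at 72.9 ± 19.5, Klf2 at 60.1 ± 9.34, Klf4 at 27.3 ± 9.86, Klf10 at 15.4 ± 2.40, Nr4a2 at 9.73 ± 1.94 and Nr4a3 at 5.27 ± 2.12 CPM per kilobase. In Veh the highest member of each family was thus Zfp36, Nr4a1 or Klf6. In the Veh order only the neighbours Zfp36l2 and Klf2 overlapped between libraries.

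In ND, Zfp36 at 487 ± 126 CPM per kilobase (SD, n = 2) and Nr4a1 at 309 ± 90.1 again came first, and Klf2 at 76.5 ± 28.3 stood beside Klf6 at 75.9 ± 5.18. In the ND order Klf2, Klf6, Zfp36l2 and Zfp36l1 each overlapped with their next neighbour, and the other genes did not. In DPI every pair of neighbours overlapped, from Zfp36 at 627 ± 287 CPM per kilobase (SD, n = 4) down to Nr4a3 at 1.82 ± 1.17. Zfp36 and Nr4a1 were first and second, and Nr4a2 and Nr4a3 were the ninth and the tenth, in each of the 3 groups.

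HFD with vehicle went with higher levels of 5 of the 10 genes. Zfp36, Zfp36l1, Nr4a1, Nr4a3 and Klf6 were each higher in Veh than in ND at the study's threshold, which asks edgeR for p under 0.05 before adjustment and for a log2 fold change of 1 or more in either direction. The count of 5 was 2 without ND1, 3 without Veh2, 2 without Veh3 and 0 with scaling by library size alone. No member was lower at that threshold with all libraries, and Klf4 was lower without ND2. Over all tested genes, 7.03% were higher and 4.63% lower. After Benjamini-Hochberg adjustment over all tested genes, 0 of 10 members had an adjusted p under 0.05 by edgeR, by its likelihood ratio test or by DESeq2, beside 0.0614% of all genes. The members' adjusted p ranged from 0.267 upward. Their median log2 fold change was 1.19, beside 0.03 for all tested genes.

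DPI went with lower levels of 3 genes. Zfp36l1, Nr4a1 and Nr4a3 were lower in DPI than in Veh at the same threshold and none was higher, where 1.34% of all genes were lower and 1.5% higher. The count of 3 was 1 without DPI1, 1 without DPI2 and 7 without DPI4. Every member had an adjusted p of 0.999, and 0% of all 11393 genes passed the adjustment, although 4 members had p under 0.05 before adjustment, beside 4.13% of all genes. DESeq2 also called 0 members after adjustment. The median log2 fold change of the members was -0.63, beside 0.04 for all tested genes. Both comparisons use the same 3 Veh libraries, and are not independent.

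**Figure D1:**
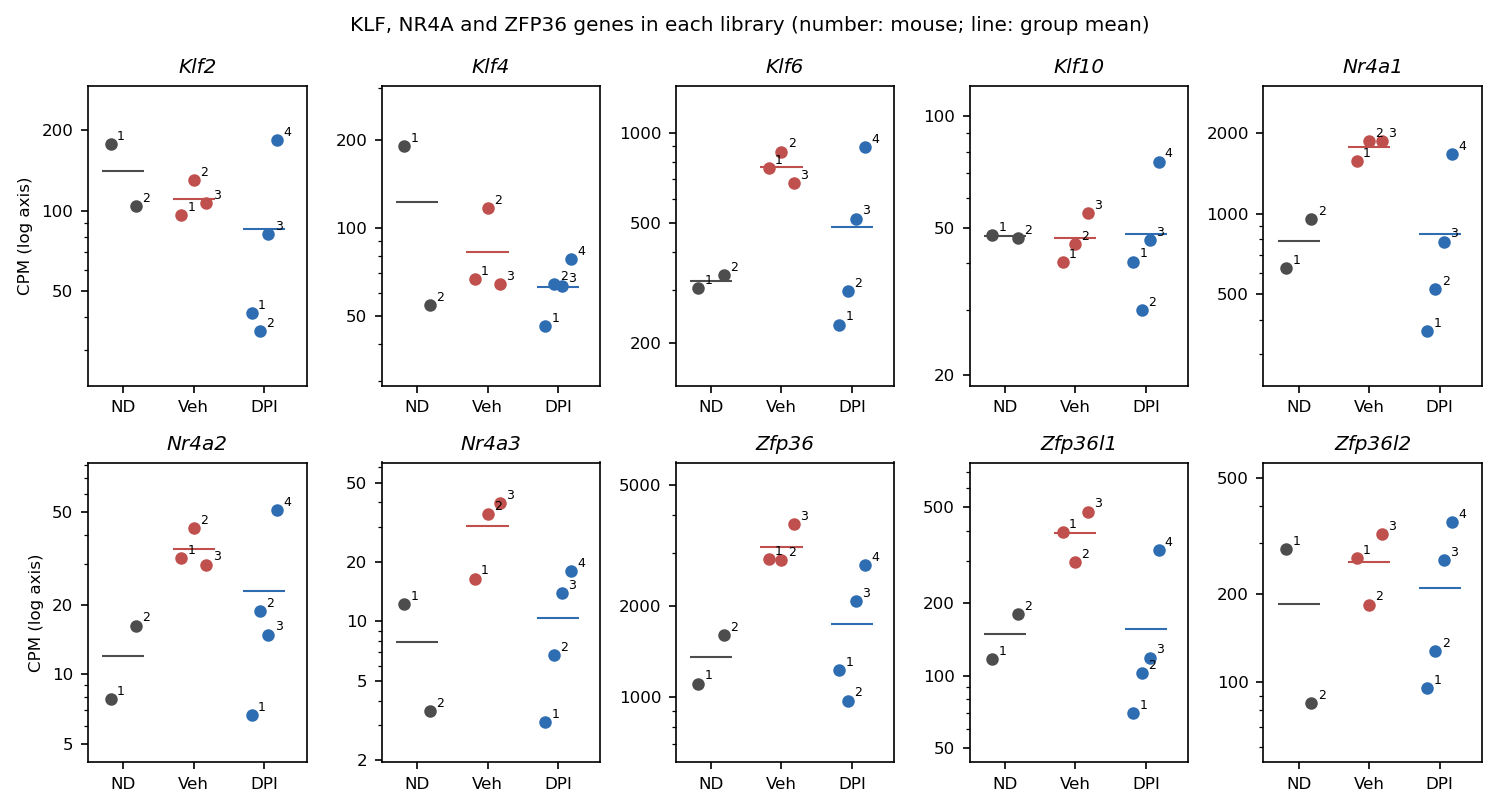
Normalized level of each gene in every library, as CPM on a log axis, with the number of the mouse beside each point and a line at the group mean, for ND, Veh and DPI. In Klf6, the NR4A genes, Zfp36 and Zfp36l1 every Veh point lies above both ND points. The highest DPI point of these genes reaches the range of Veh or lies above it, except in Zfp36, where all DPI points lie below Veh.

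Nr4a1 (Nur77; ENSMUSG00000023034, chr15:101254269-101274795, + strand, GRCm38) is the nuclear receptor of the family most used in myeloid cells. It had 626 and 951 CPM in ND, 1575, 1867 and 1870 CPM in Veh, and 364, 522, 786 and 1669 CPM in DPI. Every Veh library was above both ND libraries, and 3 of the 4 DPI libraries lay below 800 CPM while DPI4 was within the Veh range. The log2 fold change was 1.17 (standard error 0.50, adjusted p = 0.358 by edgeR) for Veh against ND. For DPI against Veh it was -1.08 (standard error 0.40, adjusted p = 0.999 by edgeR). The first call was lost without ND1, Veh2 or Veh3, and the second without DPI1 or DPI2.

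Nr4a3 (Nor1; ENSMUSG00000028341, chr4:48045153-48086447, + strand) acts redundantly with Nr4a1 in myeloid cells. It had 12.2 and 3.55 CPM in ND, 16.4, 34.6 and 39.4 CPM in Veh, and 3.13, 6.79, 13.9 and 17.9 CPM in DPI. Its counts were low, from 19 in ND2 to 191 in Veh2. Veh lay above ND without overlap, while DPI3 and DPI4 stood on either side of, and close to, the lowest Veh library. The log2 fold change was 1.93 (standard error 0.81, adjusted p = 0.351, edgeR) for Veh against ND and -1.53 (standard error 0.63) for DPI against Veh. The first was no longer past the threshold without ND2, Veh2 or Veh3, and the second without Veh2, Veh3, DPI1 or DPI2.

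Nr4a2 (Nurr1; ENSMUSG00000026826, chr2:57106830-57124003, − strand) is the member best known from dopamine neurons. It had 7.83 and 16.2 CPM in ND, 31.7, 42.6 and 29.7 CPM in Veh, and 6.68, 18.7, 14.8 and 51.2 CPM in DPI. All Veh libraries were above ND, yet the log2 fold change of 1.53 (standard error 0.73) did not pass the threshold (adjusted p = 0.399, edgeR). It passed in 9 of 18 alternatives, among them DESeq2's Wald test, edgeR's likelihood ratio test and the fit without ND2. DPI4 held the highest level of the 9 libraries and DPI1 the lowest, and the log2 fold change for DPI against Veh was -0.60 (standard error 0.58).

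The promoters of the NR4A genes are shown because the letters TGACG, the core of the cyclic AMP response element, recur in them. The RefSeq promoter table (GRCm38.p6) held 8 of the 10 members, without Klf10 and Zfp36l2, and the 250 bases before each start were searched on both strands. Each of the 3 NR4A promoters held 4 copies. Of the promoters of tested genes, 27.7% held at least 1 copy and 0.376% (32 of 8503) held 4 or more, a limit that was chosen after the copies had been counted. The full palindrome TGACGTCA was in none of the 8 and in 2.75% of the promoters of tested genes. A match is a run of letters, not a shown site. In the following stretches, on the strand of the gene, capitals mark TGACG or its reverse complement and, in Nr4a2, also a MEF2 motif:
Nr4a1, chr15:101266726-101266845: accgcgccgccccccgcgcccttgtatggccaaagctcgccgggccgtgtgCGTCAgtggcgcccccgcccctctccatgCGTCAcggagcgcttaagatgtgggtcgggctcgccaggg
Nr4a2, chr2:57124087-57124206: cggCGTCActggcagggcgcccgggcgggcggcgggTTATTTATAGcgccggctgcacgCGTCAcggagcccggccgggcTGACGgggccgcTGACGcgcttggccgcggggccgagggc
Nr4a3, chr4:48045055-48045152: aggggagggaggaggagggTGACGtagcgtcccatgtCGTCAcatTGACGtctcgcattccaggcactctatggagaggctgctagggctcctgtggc

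The Nr4a2 stretch holds all 4 copies, the Nr4a3 stretch 3 of 4 and the Nr4a1 stretch the 2 nearest to the start. The Nr4a1 stretch lies inside the annotated gene, upstream of the RefSeq start. Outside the NR4A family, Klf2 and Klf4 each had 1 copy in the searched bases, and Klf6, Zfp36 and Zfp36l1 had none.

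The factors that act on such elements were followed as a list of 8 CREB family and coactivator genes. Of these, 2 were higher and none lower in Veh than in ND at the threshold, and none passed in the other comparisons. Crtc2, a CREB coactivator released by dephosphorylation, had 54.6 ± 26.3 CPM (SD, n = 3) in Veh and 18.4 ± 13.4 (SD, n = 2) in ND, a log2 ratio of 1.56 (standard error 0.59, adjusted p = 0.314, edgeR). Its relative Crtc1 had 8.04 ± 4.94 CPM in Veh and 0.654 ± 0.924 in ND (adjusted p = 0.339, edgeR), with 0 counts in 1 of the 2 ND libraries. Among the retinoid X receptors, which pair with Nr4a1 and Nr4a2 on DNA, 2 of 3 were tested. Rxra was lower in Veh, at 8.53 ± 2.68 CPM against 30.2 ± 23.7 in ND (log2 fold change -1.83, standard error 0.83, adjusted p = 0.375, edgeR), a call that was lost without ND1, any 1 of the Veh libraries, DPI2 or DPI3. It was also lower in DPI than in ND, at 8.24 ± 5.59 CPM (log2 fold change -1.89, standard error 0.76, adjusted p = 0.419, edgeR), which was lost without ND1 or DPI3.

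Zfp36 (tristetraprolin; ENSMUSG00000044786, chr7:28376784-28380253, − strand) had 1109 and 1607 CPM in ND, 2849, 2825 and 3714 CPM in Veh, and 1229, 975, 2075 and 2721 CPM in DPI. It was the only member whose groups did not overlap both for Veh against ND and for DPI against Veh. For Veh against ND its log2 fold change was 1.2 (standard error 0.39, adjusted p = 0.267, edgeR), with the smallest p of the 10 genes, but it did not pass without ND1 (0.97). For DPI against Veh it was -0.84 (standard error 0.32), under the fold limit. Among all genes, 2.48% had every DPI library below every Veh library.

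Zfp36l1 (ENSMUSG00000021127, chr12:80107754-80113013, − strand), which shares the tandem zinc fingers of Zfp36, had 117 and 179 CPM in ND and 394, 296 and 480 CPM in Veh. In DPI it had 69.7, 102, 119 and 331 CPM. The first 3 DPI libraries were below ND2, and DPI4 lay inside the Veh range. The log2 fold change was 1.39 (standard error 0.56, adjusted p = 0.333, edgeR) for Veh against ND and -1.33 (standard error 0.44) for DPI against Veh, the smallest p of the 10 there. Without ND1 or Veh3 it was no longer called for Veh against ND, while the call for DPI against Veh held with each library left out.

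Zfp36l2 (ENSMUSG00000045817, chr17:84183931-84187947, − strand), the family member known for its part in lymphocyte and blood cell development, did not separate the groups. It had 285 and 85.0 CPM in ND, 266, 184 and 321 CPM in Veh, and 95.5, 127, 262 and 353 CPM in DPI. The ND libraries alone spanned most of the Veh range. The log2 fold changes were 0.47 (standard error 0.57, adjusted p = 0.785, edgeR) for Veh against ND and -0.29 (standard error 0.47) for DPI against Veh. Without ND1 the first was 1.6 and past the threshold (adjusted p = 0.321, edgeR), and without ND2 it was -0.12.

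The 3′ UTRs of the ZFP36 genes carry the type of element that their own proteins bind, so the sites are shown. The nonamer TTATTTATT, the preferred target of ZFP36 proteins, occurred once in the 3′ UTR of each of the 3 ZFP36 genes and in none of the other 7 members. Among 10219 tested genes with an annotated 3′ UTR in GENCODE M21, 7.49% held it. The sites follow on the strand of the gene, with the nonamer in capitals:
Zfp36, chr7:28376952-28376978: atgacgactTTATTTATTgtattaaga
Zfp36l1, chr12:80108168-80108194: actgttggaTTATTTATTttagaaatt
Zfp36l2, chr17:84184915-84184941: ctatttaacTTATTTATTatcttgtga

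The shorter pentamer ATTTA, which is part of the nonamer, was in all 10 members and in 67.3% of the tested genes. The members had longer 3′ UTRs, with a median of 1409 bases against 1017. Of tested genes with a 3′ UTR of 500 to 2500 bases, 76.8% held the pentamer. The members held from 1 copy in Klf2 and Klf4 to 9 in Zfp36l1, with 7 in Klf6. Per kilobase of 3′ UTR the median was 2.47 copies in the members, 1.26 in all tested genes and 1.44 in those of 500 to 2500 bases. Nr4a1 had the most at 5.53. The search for these elements was added after the expression values had been seen, and matches were not tested for binding.

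Zfp36 also held the only CArG box of the 8 promoters, the motif bound by serum response factor, which 1.08% of the promoters of tested genes hold. The box lies 58 to 49 bases before the RefSeq start but inside the annotated gene, which begins further upstream. It is in capitals in this stretch:
Zfp36, chr7:28379267-28379296, − strand: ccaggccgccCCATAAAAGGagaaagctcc

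Zfp36l1 held the only AP-1 motif (TGANTCA), found in 4.43% of the promoters of tested genes, and none of the 8 searched promoters held a match to the NF-kappaB motif.

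Of 22 tested mRNAs from a list of AU-rich targets of ZFP36 proteins, 3 were higher and 1 lower in Veh than in ND. Their median log2 fold change was 0.72. The chemokine gene Ccl4 rose to 482 ± 35.7 CPM (SD, n = 3) from 201 ± 85.1 (SD, n = 2), a log2 ratio of 1.26 (standard error 0.44, adjusted p = 0.288, edgeR). The gene that was lower, Il1a, had 0 counts in all 3 Veh libraries and 5.29 ± 3.35 CPM in ND (adjusted p = 0.244, edgeR). For DPI against Veh, 1 was higher and 2 lower, and the median was -0.49. Nfkbiz, which encodes an atypical IκB protein that assists NF-kappaB, was lower, at 114 ± 43.6 CPM (SD, n = 4) against 244 ± 77.5 in Veh (log2 fold change -1.09, standard error 0.33). Il1a was the gene that was higher, at 1.24 ± 1.67 CPM in DPI (adjusted p = 0.999, edgeR), against 0 counts in Veh.

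Of 33 tested genes of the deadenylation and decay machinery, 3 were higher and none lower in Veh than in ND, and none passed for DPI against Veh. Rqcd1, a core subunit of CCR4-NOT now named Cnot9, had 19.9 ± 7.41 CPM (SD, n = 3) in Veh and 4.39 ± 4.09 (SD, n = 2) in ND, a log2 ratio of 2.17 (standard error 0.80, adjusted p = 0.306, edgeR). Tnks1bp1, which binds the same complex, had 0 counts in both ND libraries, 3.87 ± 2.46 CPM in Veh (adjusted p = 0.234, edgeR) and 2.6 ± 2.50 CPM in DPI (adjusted p = 0.332 against ND, edgeR). Tob2, which links deadenylases to mRNAs, had 48.2 ± 19.7 CPM in DPI and 88.3 ± 17.2 in Veh, with a log2 ratio of -0.88 (standard error 0.35) that stayed under the fold limit.

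The p38-MK2 kinases and 14-3-3 proteins, with the phosphatase PP2A acting against them, control ZFP36 protein through its phosphorylation. Of 8 tested genes of these kinds, 2 were higher and 2 lower in Veh than in ND. Mapk14, the gene of p38α, was lower, at 32.4 ± 7.84 CPM against 86.7 ± 53.9 (log2 fold change -1.42, standard error 0.45, adjusted p = 0.256, edgeR). Ywhaz, a 14-3-3 gene, was higher, at 1162 ± 376 CPM against 529 ± 205 (log2 fold change 1.13, standard error 0.37, adjusted p = 0.258, edgeR). None of the 8 passed for DPI against Veh, where Ywhaz had a log2 ratio of -0.77 (standard error 0.29). Among 10 other RNA-binding regulators of AU-rich mRNAs, 2 were higher and 2 lower in Veh than in ND. Rc3h2, a Roquin gene, rose (log2 fold change 1.75, standard error 0.61, adjusted p = 0.287, edgeR) and Tia1, a translational repressor, fell (log2 fold change -1.95, standard error 0.59, adjusted p = 0.234, edgeR).

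Klf6 (ENSMUSG00000000078, chr13:5861482-5870394, + strand), an early response factor that promotes inflammatory gene expression in macrophages, had 305 and 336 CPM in ND, 762, 866 and 682 CPM in Veh, and 230, 298, 518 and 893 CPM in DPI. The ND pair was close together and well below Veh, and DPI ranged from under ND to over Veh. The log2 fold change was 1.26 (standard error 0.47, adjusted p = 0.311, edgeR) for Veh against ND and -0.67 (standard error 0.37) for DPI against Veh. Without ND1 the first kept its size (1.21) but did not pass.

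Klf2 (ENSMUSG00000055148, chr8:72319033-72321656, + strand) had 178 and 104 CPM in ND, 96.1, 130 and 107 CPM in Veh, and 41.3, 35.3, 81.8 and 183 CPM in DPI. DPI4 had the highest level and DPI2 the lowest of all 9 libraries. The log2 fold changes of -0.35 (standard error 0.57, adjusted p = 0.856, edgeR) and -0.37 (standard error 0.48) for Veh against ND and DPI against Veh were smaller than their errors. The stretch shown before its start carries a MEF2 motif in capitals, which 1.53% of the promoters of tested genes hold and which Klf2 and Nr4a2 alone had among the 8 members searched:
Klf2, chr8:72318913-72319032, + strand: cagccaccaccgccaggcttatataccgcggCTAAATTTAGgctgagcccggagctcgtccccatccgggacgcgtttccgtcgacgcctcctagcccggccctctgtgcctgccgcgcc

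Klf4 (ENSMUSG00000003032, chr4:55527143-55532466, − strand), a factor of monocyte differentiation, had 191 and 54.5 CPM in ND, 66.8, 117 and 64.2 CPM in Veh, and 46.1, 64.2, 63.1 and 78.1 CPM in DPI. ND1 held the highest level and ND2 lay within the DPI range. The log2 fold change was -0.57 (standard error 0.47, adjusted p = 0.650, edgeR) for Veh against ND and -0.40 (standard error 0.40) for DPI against Veh. The Veh against ND value turned on the ND libraries, at 0.62 without ND1 and at -1.17 without ND2, where Klf4 passed the threshold as lower (adjusted p = 0.137, edgeR).

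Klf10 (ENSMUSG00000037465, chr15:38291463-38300706, − strand), a gene induced early by TGF-β, was the most even member. It had 47.7 and 46.9 CPM in ND, 40.4, 45.2 and 54.8 CPM in Veh, and 40.5, 29.9, 46.2 and 75.3 CPM in DPI. The group means of 47.3, 46.8 and 48.0 CPM lay closer together than the libraries of Veh or DPI, and the log2 fold changes were -0.02 (standard error 0.41) and 0.04 (standard error 0.34).

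Of 10 other KLF and SP genes that could be tested, none passed the threshold in any comparison, and their median log2 fold change was -0.28 for Veh against ND and -0.23 for DPI against Veh. A list of the MEK5-ERK5-MEF2 pathway, which feeds into Klf2 and Klf4, also held class IIa HDAC genes. Of its 11 tested genes, 1 passed. Mapk7, the gene of ERK5, was lower in Veh, at 10.7 ± 0.615 CPM (SD, n = 3) against 28.8 ± 7.18 (SD, n = 2) in ND (log2 fold change -1.43, standard error 0.49, adjusted p = 0.278, edgeR). It was also lower in DPI than in ND, at 13.6 ± 1.55 CPM (log2 fold change -1.09, standard error 0.45, adjusted p = 0.428, edgeR), and 0 genes of the list passed for DPI against Veh.

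**Figure D2:**
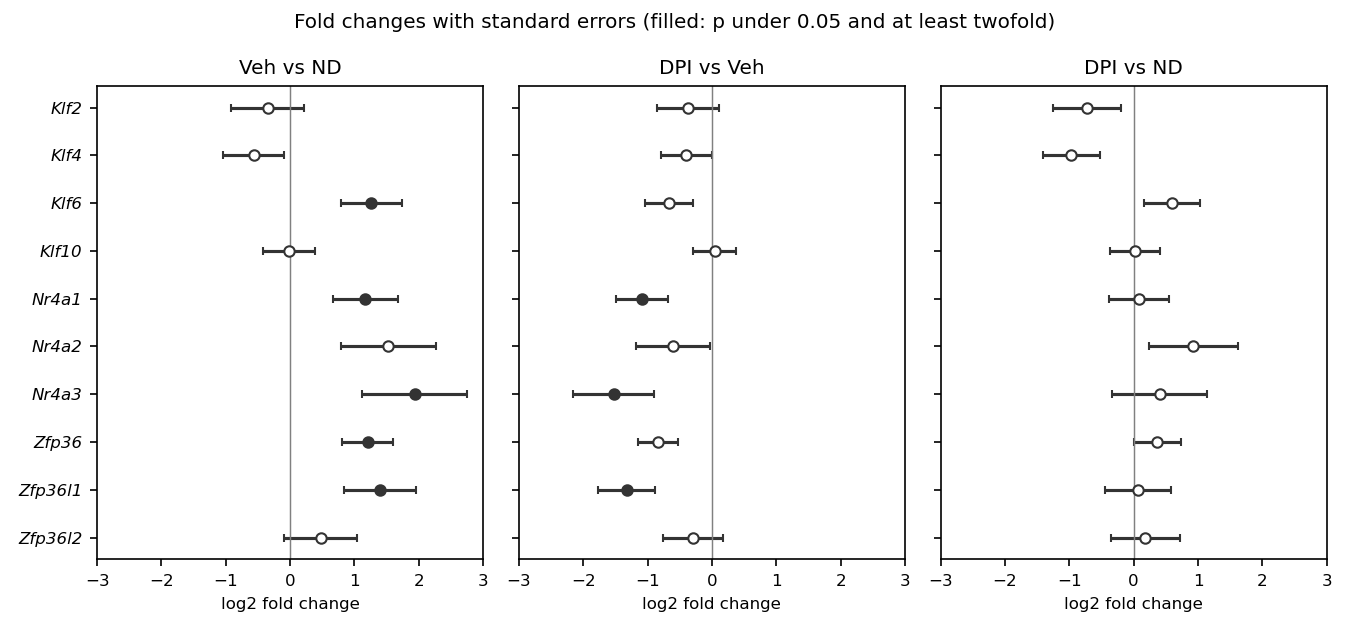
Log2 fold change of each gene with its standard error from edgeR for Veh against ND, DPI against Veh and DPI against ND, with filled points for genes past the threshold. The 5 filled points on the left are all above 1, the 3 in the middle all below -1, and the right panel holds none.

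DPI-treated HFD mice against ND mice gave 0 members past the threshold in either direction, where 6.24% of all genes were higher and 3.05% lower. Only Klf4 had p under 0.05 before adjustment, 1 of 10 members beside 10.7% of all genes, with a log2 ratio of -0.97 (standard error 0.44, adjusted p = 0.458, edgeR), and 0.00878% of all genes passed the adjustment. The median of the members was 0.13, beside 0.04 for all tested genes. Without ND1, the log2 fold change of Klf4 turned to 0.21 (adjusted p = 0.917, edgeR). Without ND2 it was -1.58, with an adjusted p of 0.0405 by edgeR that rests on a single ND library whose spread is taken from the other groups. The other 9 members had log2 fold changes from -0.72 for Klf2 to 0.93 for Nr4a2. A p over the threshold does not show that the DPI and ND levels were alike.

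The calls in the lists around the members for DPI against ND stand beside 6.24% of all genes higher and 3.05% lower. Of the decay machinery 2 genes were higher and none lower, with Rqcd1 at 17.5 ± 9.34 CPM (SD, n = 4) in DPI (adjusted p = 0.409, edgeR). Of the p38-MK2 list 1 was higher and 1 lower, the latter being Mapk14 at 34.8 ± 11.5 CPM (adjusted p = 0.335, edgeR). Of the other RNA-binding regulators 1 was higher and 2 lower, and Khsrp, a decay-promoting KH protein, was at 9.29 ± 2.25 CPM against 23.6 ± 15.4 in ND (adjusted p = 0.445, edgeR). Hnrnpd and Map3k3 had log2 fold changes of -0.90 and -0.88, under the fold limit, and none of the 22 AU-rich targets passed. Mapk11, listed with the p38 kinases, had 4.29 ± 4.33 CPM in DPI and 0 counts in both ND libraries.

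In Veh against ND, 6 of 10 members had every Veh library above every ND library, beside 15% of all genes: Klf6, Nr4a1, Nr4a2, Nr4a3, Zfp36 and Zfp36l1. The calls turned on single libraries. Without ND1 those past the threshold were Nr4a3 and Zfp36l2, while Klf6 (1.21), Nr4a1 (0.91), Zfp36 (0.97) and Zfp36l1 (1.13) kept positive log2 fold changes. Without ND2, Nr4a3 (1.33) no longer passed, and Nr4a2 (2.18) did. The count was 6, with Nr4a2 added, by DESeq2's Wald test, by edgeR's likelihood ratio test, with either other filter on low counts and in the fit of only the 2 groups. With library size alone the median log2 fold change was -0.26 over all genes and 0.89 over the members.

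The list counts for Veh against ND, taken in both directions together, also turned on single libraries. Without ND1 the AU-rich targets gave 7 in place of 4, the decay machinery 7 in place of 3, a list of immediate early genes 5 in place of 8, the p38-MK2 list 1 in place of 4, the CREB list 1 in place of 2, and the retinoid X receptors and the MEK5-ERK5-MEF2 list 0 in place of 1. Without ND2 the AU-rich targets gave 7, the decay machinery 6 and the MEK5-ERK5-MEF2 list 2. The CREB count was 1 without any 1 of the Veh libraries. The immediate early count was 5 without Veh1 or Veh3.

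For DPI against ND, the decay machinery gave 7 without ND1, 6 without ND2 and 4 without Veh1 in place of 2, and the immediate early genes 1 without ND1 and 9 without ND2 in place of 3. The AU-rich targets gave 2 without ND1 and 3 without ND2 in place of 0, the CREB list 1 and 2 in place of 0, and the MEK5-ERK5-MEF2 list 0 and 2 in place of 1. The other RNA-binding regulators gave 0 without DPI2 or DPI3 in place of 3.

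For DPI against Veh, the count of 3 rested on single DPI libraries. Without DPI4, where it was 7, the median of the members was -1.14. DPI4 was the library with the highest level in 5 of the 10 genes and among the top 3 in 9. DPI1 was among the lowest 3 libraries for 10 of 10 genes and the lowest for 6, and DPI2 was among the lowest 3 for 8. DPI1 was also the deepest library and DPI4 the second deepest. Without DPI4 the AU-rich targets past the threshold were 7 in place of 3 and the immediate early genes 8 in place of 4. The first count was 1 without Veh1 or Veh3 and the second 2 without DPI2 or DPI3.

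The spread of log2 CPM within DPI was the widest of the groups for 7 of 10 members, a difference in spread that was not tested. The mean log2 CPM of the 10 genes was 7.0 and 6.69 in ND and 7.54, 7.78 and 7.81 in Veh, but 6.02, 6.40, 7.02 and 7.87 in DPI. The SD of that mean was 0.81 in DPI (n = 4), 0.15 in Veh (n = 3) and 0.22 in ND (n = 2). From the lowest to the highest DPI library, Nr4a2 spanned 7.67-fold, Nr4a3 5.71-fold, Klf2 5.19-fold, Zfp36l1 4.75-fold and Nr4a1 4.59-fold, while Klf4 spanned 1.69-fold. In Veh the same Nr4a1 span was 1.19-fold.

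**Figure D3:**
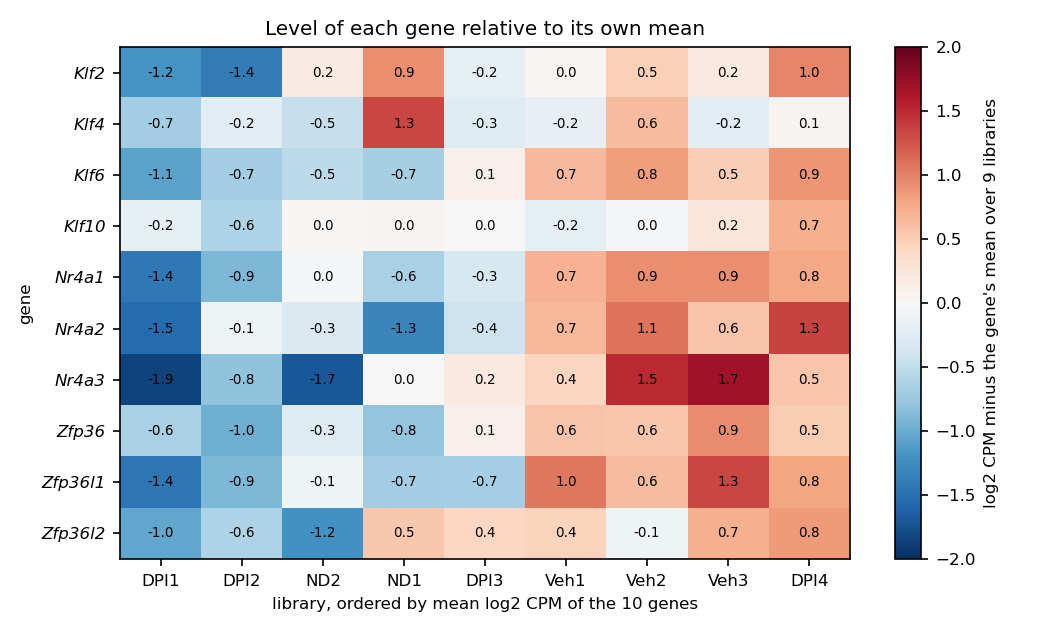
Level of each gene in each library as log2 CPM minus the mean of that gene over the 9 libraries, with libraries ordered by the mean log2 CPM of the 10 genes. DPI1 and DPI2 lie at the low end with negative values in all genes, the Veh libraries and DPI4 lie at the high end, and Klf4 departs from the others in ND1.

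The levels of most members were correlated from library to library. Over the 45 pairs of members, the median Pearson r of log2 CPM across the 9 libraries was 0.58, and 12 pairs exceeded 0.8. These values share library, depth and scaling, and are given as a description. The most alike pair was Nr4a1 and Zfp36l1, with r = 0.969 and Spearman's rho 0.933, and r = 0.956 without the 2 libraries farthest from the median of Nr4a1. Klf6 and Nr4a1 followed with r = 0.937. Within the groups, after each group mean was subtracted, these pairs had r of 0.933 and 0.955, and the median over all pairs was 0.68. Klf4 was the least like the others, from r = -0.066 with Zfp36 to 0.647 with Klf2. Without Veh2 and ND1, its r with Zfp36 was 0.553 and with Nr4a2 0.930, against 0.020 with all 9 libraries. Several values of Klf2 rested on DPI1 and DPI2, since without them its r fell from 0.582 to 0.00063 with Klf6, from 0.653 to -0.0020 with Nr4a1 and from 0.496 to -0.28 with Zfp36, while it was 0.697 with Klf4 and 0.597 with Klf10.

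Outside the set, the genes whose log2 CPM over the 9 libraries was most like the mean of the members were Nfkbid (r = 0.975), which encodes the nuclear IκB protein IκBNS, Thbs1 (r = 0.961), the matrix protein thrombospondin-1, and Rel (r = 0.957), the NF-kappaB subunit c-Rel. Slc20a1 (r = 0.955), a phosphate transporter, and Niacr1 (r = 0.953), the niacin and β-hydroxybutyrate receptor now named Hcar2, came next. Thbs1 had 199 and 162 CPM in ND, 574, 594 and 818 CPM in Veh, and 91.1, 79.1, 431 and 1231 CPM in DPI, with DPI1 and DPI2 lowest and DPI4 highest. For the KLF members alone the most alike genes were Rnf149 (r = 0.969), Gm4832 (r = 0.950) and Pim3 (r = 0.945), although Gm4832 had at most 2.35 CPM and lay under the floor of 3 counts in DPI1, DPI2, ND2 and Veh3. For the NR4A members they were Snhg1 (r = 0.985), Nfkbid (r = 0.963) and the chemokine receptor gene Cxcr4 (r = 0.953), and for the ZFP36 members the clock gene Per1 (r = 0.982), Niacr1 (r = 0.976) and Sh2d3c (r = 0.964).

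The list called immediate early genes in this report also holds dissociation-induced genes, heat shock genes among them. Its 33 tested genes, many of them known to be induced by tissue dissociation, were measured beside the members. Their mean log2 CPM was 6.69 ± 0.06 (SD, n = 2) in ND, 7.27 ± 0.16 (SD, n = 3) in Veh and 6.73 ± 0.41 (SD, n = 4) in DPI, and by library 6.55, 6.26, 6.88 and 7.21 in DPI. In Veh against ND, 7 were higher and 1 lower at the threshold. Gadd45b, a stress response gene, rose to 132 ± 17.0 CPM from 53.3 ± 25.5 (log2 fold change 1.31, standard error 0.43, adjusted p = 0.268, edgeR), and Nfkbia, the gene of IκBα, rose to 619 ± 64.1 CPM from 298 ± 42.6 (log2 fold change 1.05, standard error 0.37, adjusted p = 0.289, edgeR). In DPI against Veh, none was higher and 4 were lower, Nfkbiz among them. Egr1, a zinc finger factor of the first response to stimuli, fell to 106 ± 35.9 CPM from 262 ± 102 (log2 fold change -1.30, standard error 0.33). For DPI against ND, 0 of the 33 were higher and 3 lower, with Ier5 at 38.4 ± 12.6 CPM against 99.6 ± 52.9 (log2 fold change -1.37, standard error 0.41, adjusted p = 0.288, edgeR) and Jund at 32.4 ± 14.9 against 81.0 ± 66.8 (log2 fold change -1.32, standard error 0.51, adjusted p = 0.409, edgeR). No label records dissociation time or sort order, and the part of either in the members' levels was not tested.

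Markers of other cell types differed between libraries, some lists partly in the order of the members and some partly in the opposite order. All 10 neutrophil markers of the table had counts in every library, and their summed level was 1481 and 3390 CPM in ND, 2604 to 4033 CPM in Veh, and 1104, 937, 3892 and 5774 CPM in DPI. Most of the sum in DPI4 came from S100a8 and S100a9, at 1899 and 2356 CPM there and at 158 and 150 CPM in DPI1. The granule genes were mixed, with Mmp8 at 289 CPM in DPI1 and 158 CPM in DPI4 and Camp at 43.0 and 23.3 CPM, but Mmp9 at 2.15 and 70.4 CPM, Ltf at 55.3 and 87.1 CPM and Ngp at 161 and 202 CPM. At the threshold, 0 of the 10 neutrophil markers were higher and 2 lower in Veh than in ND. In DPI against Veh, 3 were higher and 0 lower. Over all tested genes, 7.03% were higher and 4.63% lower in Veh than in ND. In DPI against Veh these shares were 1.5% and 1.34%. The study's methods describe a Gr-1 low gate. The 7 B cell markers summed to 32.1 and 71.7 CPM in ND, 104 to 194 CPM in Veh, and 40.8, 19.0, 126 and 451 CPM in DPI. Liver endothelial markers (10 genes) ran the other way, from 153 and 253 CPM in ND to 9.43 to 16 CPM in Veh and 186, 91.4, 4.27 and 32.8 CPM in DPI. Eosinophil markers (6 genes in the table) summed to 115, 113, 5.38 and 73.5 CPM in DPI, and to at most 7.62 CPM elsewhere. Their sums were highest in DPI1 and DPI2, where the members were lowest, but higher in DPI4 than in DPI3. Hepatocyte markers (10 genes) summed to 327 and 536 CPM in ND and to 157 to 209 CPM in Veh, opposite to most members. In DPI they summed to 347, 227, 209 and 251 CPM, of which Trf alone gave 299, 129, 155 and 212 CPM. Within DPI their order was not the reverse of that of the members. Of the 10, 4 were lower and 0 higher in Veh than in ND at the threshold, and 0 passed for DPI against Veh, where 9 had positive log2 fold changes. The part of these cells in the members' levels was not tested.

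Monocyte markers (8 genes) summed to 4317 to 4407 CPM in ND, 4269 to 5127 in Veh and 3670 to 8037 in DPI, with DPI1 highest. Kupffer cell markers (12 genes) summed to 374 and 377 CPM in ND, 552 to 1058 in Veh and 421 to 631 in DPI, mostly from Emr1 and Id3. T and NK cell markers (13 genes) ranged from 96.5 to 351 CPM in ND, 329 to 484 in Veh and 308 to 609 in DPI, with DPI2 highest. Dendritic cell markers (8 genes) summed to 47.2 to 148 CPM over all libraries. Stellate cell markers (7 genes) summed to at most 4.49 CPM in any library, with Reln and Lum at 0 in all.

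**Figure D4:**
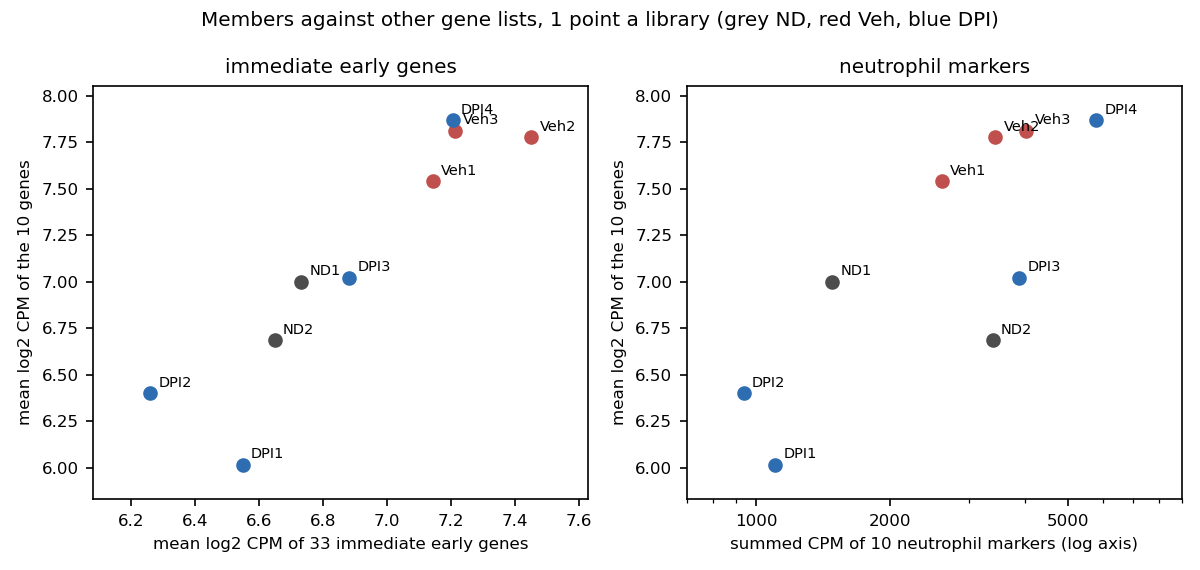
Mean log2 CPM of the 10 genes in each library, with 1 point per library. It is set against the mean log2 CPM of 33 immediate early and dissociation-induced genes (left). On the right it is set against the summed CPM of 10 neutrophil markers on a log axis. DPI1 and DPI2 lie at the lower left and the Veh libraries and DPI4 at the upper right of both panels.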

How the data were processed

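The authors aligned the reads to mm10 and deposited raw whole-number counts per gene without normalization. The paper's methods name bowtie2 and RSEM, and the processing notes of the labels name TopHat2 and edgeR. Which of them made these counts was not settled here. Samples were grouped by their titles into ND (2), Veh (3) and DPI (4), and all columns belong to a mapped library. Total counts per library ran from 3534325 to 15585775. The floor of 3 counts covers counting error only, since amplified reads carry no molecular identifiers.

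The deposited counts of all 23413 genes were fitted with edgeR 4.0.16 (R 4.3.3) with filterByExpr, TMM factors and the quasi-likelihood F test over 3 groups in 1 fit, with a biological coefficient of variation of 0.650. The p-values were adjusted by the Benjamini-Hochberg method over 11393 genes. The threshold followed the paper's methods. Log2 CPM used a prior count of 2. The fit was tested on simulated data with 200 changed genes. Alternatives were DESeq2 1.42.0 (size factors or Wald test), scaling by library size, edgeR's likelihood ratio test, no filter or at least 10 counts everywhere, a prior count of 0.5, the replicate number as a block, no Rn45s counts, fits of 2 groups, and each library left out.

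The members and gene lists were chosen with earlier results of these data known. Named genes were all members, at most 2 genes per list and comparison with the smallest p under 0.05, and the 5 genes most like the mean of the members and 3 most like each family. Il1a, Tnks1bp1 and Crtc1 are given without a fold change, since a group lies at or near 0. Transcript lengths and 3′ UTRs came from GENCODE M21 and promoters from RefSeq (GRCm38.p6). Python 3.11.15, numpy 2.4.6, pandas 2.3.3 and matplotlib 3.10.9 were also used.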

Additional observations from a re-analysis of the deposited data

Results flagged for a closer look

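In the DPI group, 45 genes (the members and the genes named with them) were checked for a library far from the other 3, and 2 met Dixon's 95% criterion, neither of them a member. Chance alone meets it in about 5% of such checks. Tnks1bp1 had 6.33 CPM in DPI4 and 1.04 to 1.67 CPM in the other DPI libraries. Nfkbiz had 179 CPM in DPI4 and 88.5 to 95.4 CPM in the others.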

How the results depend on the processing

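The same-numbered libraries correlated by -0.022 to 0.084 in their deviations from the group means, so they share only a number. With the replicate number as a block, the DPI against Veh count of members past the threshold was 7 (median log2 fold change -1.21) in place of 3. Only DPI has a replicate 4, so the block removes DPI4 from that contrast by construction. For DPI against ND the block gave a count of 1 and a median of -0.52, and signs turned for Klf6 (-0.072), Klf10 (-0.42), Nr4a1 (-0.70), Nr4a3 (-0.63), Zfp36 (-0.20), Zfp36l1 (-0.78) and Zfp36l2 (-0.41). Klf10 in DPI against Veh turned to -0.27. For Veh against ND the block gave a count of 4 members past the threshold.

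With library size alone the Veh against ND count was 0 in place of 5, and the DPI against ND count was 1 in place of 0, as it was with DESeq2 size factors in edgeR and with DESeq2's Wald test. The DPI against ND signs turned with library size alone for Klf10 (-0.16), Nr4a1 (-0.090), Zfp36l1 (-0.10) and Zfp36l2 (-0.028), and for Klf10 with DESeq2 size factors (-0.019) and the Wald test (-0.018). Klf10 in Veh against ND was 0.012 without the Rn45s counts. Library size alone moved the median of all genes to -0.26 for Veh against ND, 0.12 for DPI against Veh and -0.17 for DPI against ND. The cause of these shifts was not tested.

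With 1 library left out at a time, the count ranged from 2 to 6 for Veh against ND, from 1 to 7 for DPI against Veh and from 0 to 2 for DPI against ND, and the adjusted count for DPI against ND from 0 to 1. The median for DPI against Veh ranged from -1.14 without DPI4 to -0.36 without DPI1. The median r between members ranged from 0.529 without DPI2 to 0.788 without ND1, with 0.687 without ND2. Signs turned for Klf2 (-0.65 to 0.10), Klf4 (-1.17 to 0.62), Klf10 (-0.093 to 0.13) and Zfp36l2 (-0.12 to 1.6) in Veh against ND, and for Klf10 (-0.26 to 0.20) in DPI against Veh. In DPI against ND they turned for Klf4 (-1.58 to 0.21), Klf10 (-0.28 to 0.23), Nr4a1 (-0.50 to 0.44), Nr4a3 (-0.20 to 1.56), Zfp36l1 (-0.62 to 0.43) and Zfp36l2 (-0.42 to 1.31). Where 1 ND library is left, its spread is assumed to be that of the other groups. The members past the threshold in the Veh comparisons kept their sign in all alternatives. ND had 2 libraries, and Nr4a3 had as few as 19 counts in a library.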
